A study of Mus musculus with 6 samples.

Results

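Water, chloride and sodium channel genes were examined in the whole uterus of 21-day-old mice: the aquaporins Aqp1, Aqp3, Aqp5, Aqp8 and Aqp11, the chloride channel Cftr, and the epithelial sodium channel subunits Scnn1a, Scnn1b and Scnn1g. These 9 genes were chosen by symbol, with earlier results of these data known, from the 20637 genes that each of the 6 deposited tables lists. Each table holds 1 library of poly(A) RNA, with 3 libraries from females labelled Nat10 f/f and 3 from females labelled Nat10 d/d, all killed on postnatal day 21. By mouse genetics convention f/f is read here as floxed (controls) and d/d as deleted, which the labels do not spell out. Nat10 encodes an enzyme that acetylates cytidines in RNA. The Cre line, the deleted exons, the strain, the number of animals per library and any litter or batch are not given in the sources used here, so p-values measure only the spread between these libraries.

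Aquaporins are membrane pores for water, and some also pass glycerol or other small solutes. In the uterus, fluid in the lumen is set by secretion of chloride and bicarbonate through CFTR and by uptake of sodium through the epithelial sodium channel (ENaC), with water following through aquaporins. Ovarian oestrogen and progesterone are known to shift this balance in the adult, whereas mice are normally prepubertal at the age studied here. ENaC is assembled from an alpha, a beta and a gamma subunit, encoded by Scnn1a, Scnn1b and Scnn1g.

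Values are FPKM, fragments scaled for transcript length and for the number of mapped fragments, so that levels of different genes can be compared. Nat10 itself had values of 13.2, 16.4 and 9.95 FPKM in f/f and 5.57, 5.23 and 5.53 in d/d libraries, so that the deleted libraries all lay below the lowest control (log2 change -1.11, SE 0.17; limma adjusted p 0.669). Markers of the tissues a uterus holds were present in all 6 libraries: summed FPKM over 12 epithelial markers was 871.5 to 1190, over 9 stromal markers 3440 to 5080 and over 7 smooth muscle markers 3802 to 4854. Relative sequencing depth, estimated from the lowest values, differed by at most 1.26 times, and absolute depth is unknown. Nat10-deleted replicate 2 stands apart from the other libraries. Its summed FPKM over 10 proliferation markers was 192.8, against 18.7 and 9.83 in deleted replicates 1 and 3 and 20.1 to 80.0 in controls. Member results are therefore given with and without it.

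In the fit across all genes (limma on log2(FPKM + 1), Benjamini-Hochberg adjustment over 12640 genes tested), 0% of genes passed an adjusted p of 0.05, and none of the members did. With array quality weights, which give less weight to libraries far from their group, limma called 316 genes, with no member among them. An unadjusted p under 0.05 was found for 630 genes (4.98% of those tested) and for 0 of the 5 members tested. That count was 1700 without deleted replicate 2, 1397 without deleted replicate 3 and 345 without deleted replicate 1. These 5, with a value of at least 1 FPKM in at least 3 libraries, were Aqp1, Aqp11, Cftr, Scnn1a and Scnn1b, each at or above that level in all 6 libraries. Aqp3, Aqp5, Aqp8 and Scnn1g lay under the filter and are described by their values. Every deleted library lay above every control for Aqp3 and Cftr, and below every control for Aqp8. Over the 16745 genes with a value above 0 in any library, such separation occurred with the deleted group above for 5.72% and below for 4.37%. Over genes tested these shares were 6.12% and 4.6%, against 1 of 5 members above and 0 of 5 below.

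Expression levels per unit of transcript length spanned a wide range. Ordered by control mean, Aqp1 stood at 141.8 FPKM, Aqp11 at 6.86, Scnn1a at 4.59, Scnn1b at 2.79, Cftr at 1.15, Aqp5 at 0.700, Aqp8 at 0.485, Scnn1g at 0.222 and Aqp3 at 0.0850. In controls the ranges of neighbours in this order did not overlap, except for Aqp5 and Aqp8. In deleted libraries only the steps from Aqp1 to Aqp11 and from Cftr to Aqp5 kept separate ranges. Aqp1 lay at percentile 98.0 of all listed genes by control mean, Aqp11 at 56.4, Cftr at 39.7 and Aqp3 at 27.8.

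**Figure D1:**
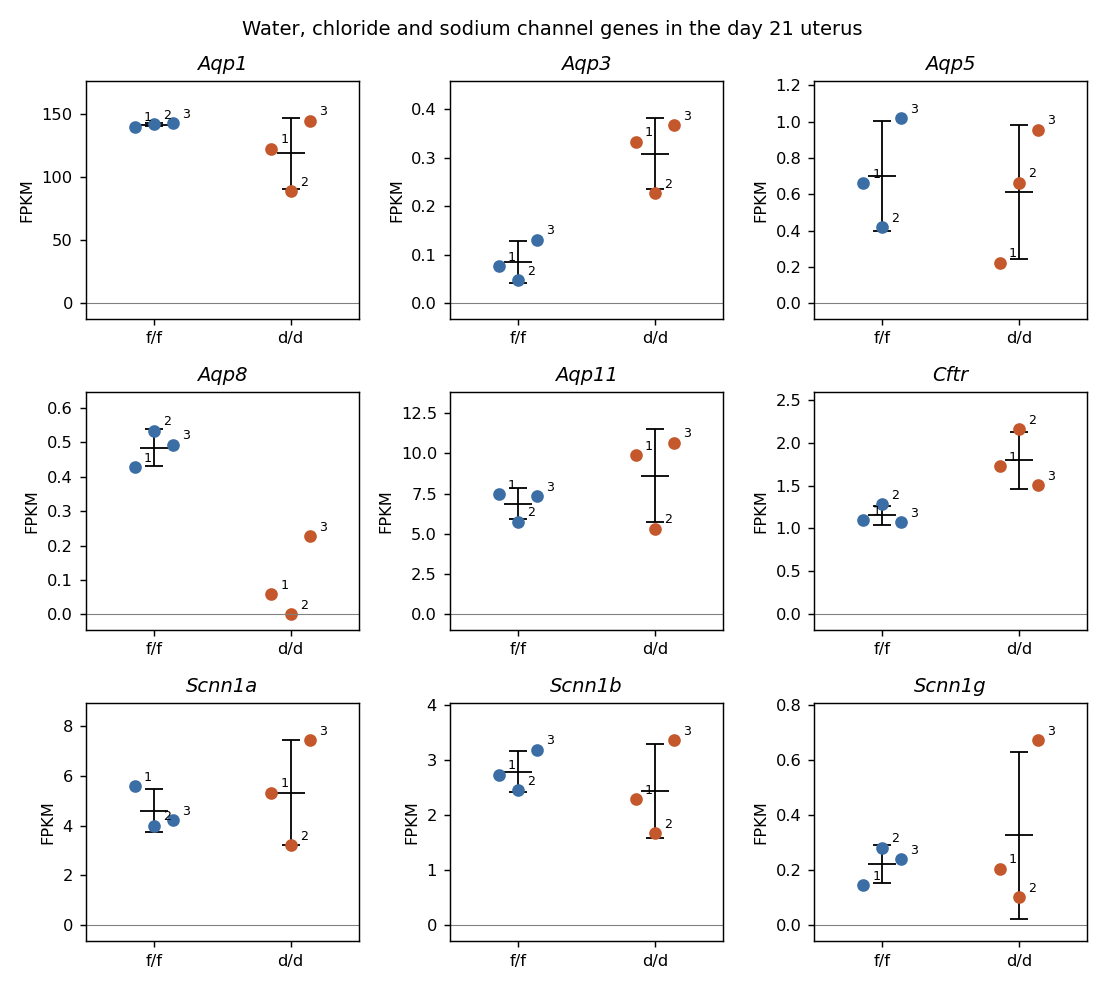
FPKM of the 9 genes in each library (blue, f/f controls; orange, d/d), with replicate numbers beside the points and black bars for the mean and SD of 3 libraries per group (none for d/d Aqp8, which includes a 0). The groups do not overlap for Aqp3, Aqp8 and Cftr, and deleted replicate 2 is the lowest library for Aqp1, Aqp11 and the 3 sodium channel subunits.

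Aqp1 (ENSMUSG00000004655; chromosome 6, 55336432 to 55348555, plus strand, GRCm38) encodes the water channel of red blood cells and of capillary endothelium. It accounted for 92.1% to 95.5% of the summed FPKM of the 5 aquaporins in every library. Its values were 140.2, 142.4 and 142.8 FPKM in controls, and 122.7, 89.1 and 145.1 in deleted replicates 1, 2 and 3. The 3 controls were nearly level, while deleted replicates 1 and 2 lay below all of them and replicate 3 lay above. Group means were 141.8 ± 1.40 and 119.0 ± 28.2 (SD, n = 3). The log2 change was -0.28 (SE 0.18, 95% interval -0.69 to 0.13; limma adjusted p 0.922). It was -0.09 without deleted replicate 2 and -0.44 without deleted replicate 3 (limma unadjusted p 0.029, adjusted p 0.435). The standard deviation on the log2 scale was 25.0 times as large among deleted libraries as among controls, where the median gene tested had a ratio of 1.73.

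Markers of endothelium, red blood cells and other cell types were set beside Aqp1. Which cells carry it in this tissue was not measured. All 10 endothelial markers were tested, and 9 had a lower mean log2(FPKM + 1) in deleted libraries, with a median log2 change of -0.17 (0.03 over all genes tested). Deleted libraries lay below all controls for 3 of 10, the receptor genes Kdr, Flt1 and Tek, against 4.6% of genes tested. The summed FPKM of the list was 413.4 to 473.5 in f/f and 393.2, 370.6 and 468.1 in d/d replicates 1, 2 and 3. The sum was lowest in deleted replicate 2, as were Aqp1 and, among the markers, Pecam1, Egfl7 and Cldn5 (Cldn5 82.5, 48.0 and 123.4 FPKM in d/d). Cdh5, Kdr, Flt1, Tie1, Tek and Esam were lowest in replicate 1, and Emcn in replicate 3. The median endothelial marker, relative to the control mean, was lowest in replicate 1 (-0.28, -0.21 and -0.09 in replicates 1, 2 and 3). Summed FPKM of the 7 red blood cell markers was 5582, 2629 and 851.5 in controls, where Aqp1 had 140.2, 142.4 and 142.8. In deleted libraries that sum was 709.4, 1723 and 1111, with Aqp1 at 122.7, 89.1 and 145.1. On the same log2 scale all 5 tested red blood cell markers were lower (median log2 change -0.98). So were 9 of 9 stromal (median -0.22), 8 of 9 tested proliferation (-0.21) and 3 of 5 tested mesothelial markers (-0.31, with 2 of 5 separated below). Of the smooth muscle markers 4 were higher and 3 lower (median 0), and of the epithelial markers 8 were higher and 4 lower (0.12). Of the tested oviduct and ciliated cell markers 2 were higher and 1 lower (0.03). The part of cell composition in the Aqp1 values was not tested. In bulk RNA, fewer cells of a type and less RNA per cell cannot be told apart.

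Cftr (ENSMUSG00000041301; chromosome 6, 18170687 to 18322768, plus strand) encodes the cyclic AMP-regulated anion channel of secretory epithelia. Control libraries had 1.10, 1.29 and 1.07 FPKM and deleted libraries 1.73, 2.16 and 1.5. The lowest deleted value thus lay above the highest control value, and the deleted mean was 156% of the control mean (1.80 ± 0.333 against 1.15 ± 0.116 FPKM; SD, n = 3). The log2 change was 0.37 (SE 0.17, 95% interval -0.01 to 0.76). It did not pass the threshold (limma unadjusted p 0.0573, adjusted p 0.922; over the alternatives 0.0182 to 0.136 unadjusted and 0.113 to 1 adjusted), and the two-sided exact permutation p was 0.1, the smallest that 3 libraries against 3 allow. With a pseudocount of 0.1 the log2 change was 0.59, and without deleted replicate 2 it was 0.28. Deleted replicate 2, the lowest library for most members, was the highest for Cftr. A non-coding antisense gene, Gm15592, shares 129 exonic bases with Cftr, and, with strandedness not given in the sources used here, reads of the pair cannot be told apart there.

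Epithelial markers were set beside Cftr. Their RNA does not give the number of epithelial cells, and which cells carry Cftr here was not measured. Of 12 tested, 8 had a higher and 4 a lower mean log2(FPKM + 1) in deleted libraries, with a median log2 change of 0.12, and none was listed at 0. Deleted libraries lay above all controls for 3 of 12, the adhesion gene Epcam, the tight junction gene Cldn7 and the splicing regulator Esrp1, against 6.12% of genes tested. Their deleted means were 119.8%, 141.6% and 120.0% of the control means, and the largest log2 change in the list was 0.59 (Cdh16), above that of Cftr. Summed FPKM of the 12 markers was 917.8 to 989.3 in f/f and 996.3, 871.5 and 1190 in d/d replicates 1, 2 and 3. Relative to the control mean, the median of the 12 was 0.05, 0.09 and 0.23 in deleted replicates 1, 2 and 3, while Cftr stood at 0.34, 0.56 and 0.22. The pseudocount of 1 shrinks differences of Cftr, near 1 FPKM, more than those of the mostly higher markers, so these values are not on an equal footing. The part of epithelial content in the Cftr values was not tested.

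Aqp3 and Aqp8 were the other members whose groups did not overlap, at levels that rest on few fragments. Aqp3 (ENSMUSG00000028435; chromosome 4, 41092722 to 41098183, minus strand) encodes an aquaglyceroporin, which passes glycerol as well as water. It had 0.0767, 0.0472 and 0.131 FPKM in f/f and 0.333, 0.227 and 0.367 in d/d libraries. Aqp8 (ENSMUSG00000030762; chromosome 7, 123462291 to 123468004, plus strand) encodes a water channel. It had 0.427, 0.534 and 0.493 FPKM in controls, and 0.0588, 0 and 0.227 in deleted replicates 1, 2 and 3. So Aqp3 was higher and Aqp8 lower in all 3 deleted libraries, and each gave an exact permutation p of 0.1 (two-sided), the smallest possible. The differences in mean log2(FPKM + 1) were 0.27 and -0.44, without deleted replicate 2 they were 0.32 and -0.38, and with a pseudocount of 0.1 they were 1.15 and -1.75.

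At such levels the values fall on steps. Scaled by relative depth, the Aqp3 values came within 0.02 of whole multiples, 2, 1 and 3 in f/f and 7, 6 and 8 in d/d libraries. For Aqp8 the multiples were 9, 9 and 9 in f/f and 1, 0 and 4 in d/d libraries, within 0.161 of whole numbers. If 1 step is 1 fragment, all controls together held 6 fragments of Aqp3 and 27 of Aqp8, and all deleted libraries 21 and 5. When every gene above 0 was fitted, which includes both, the limma adjusted p was 0.867 for Aqp3 and 0.772 for Aqp8.

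To show the sequence next to the transcription starts of the 3 genes whose groups separated, the 250 bases before each RefSeq start (GRCm38.p6) are printed 5′ to 3′ on the gene's strand. Capitals mark matches, on either strand, to 6 motifs: AGGTCA (oestrogen receptor half-site), AGAACA (the half-site shared by glucocorticoid, mineralocorticoid and progesterone receptors), GGGCGG (Sp1 box), TATAAA (element of many core promoters), CCAAT (bound by NF-Y) and TGACG (cyclic AMP element half-site). Positions count back from the start, with -1 the base before it.
Cftr, chr6:18170437-18170686, plus strand: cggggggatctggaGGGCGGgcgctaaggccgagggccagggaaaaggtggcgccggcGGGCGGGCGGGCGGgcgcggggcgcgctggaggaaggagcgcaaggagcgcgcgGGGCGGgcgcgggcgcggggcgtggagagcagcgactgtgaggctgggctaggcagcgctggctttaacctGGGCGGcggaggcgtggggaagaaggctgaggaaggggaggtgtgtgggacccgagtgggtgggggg
Aqp3, chr4:41098184-41098433, minus strand: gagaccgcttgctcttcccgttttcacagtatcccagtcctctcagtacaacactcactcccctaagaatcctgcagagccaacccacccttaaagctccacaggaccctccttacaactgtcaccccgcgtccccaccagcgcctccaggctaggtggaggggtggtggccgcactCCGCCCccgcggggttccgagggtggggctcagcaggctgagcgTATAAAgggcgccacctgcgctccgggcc
Aqp8, chr7:123462044-123462293, plus strand: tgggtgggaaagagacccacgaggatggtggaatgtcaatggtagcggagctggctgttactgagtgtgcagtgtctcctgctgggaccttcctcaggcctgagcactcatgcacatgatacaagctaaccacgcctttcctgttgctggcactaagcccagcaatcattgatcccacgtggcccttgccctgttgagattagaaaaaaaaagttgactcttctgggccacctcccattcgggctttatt

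Cftr held 6 GGGCGG matches, of which the 3 that begin at -192, -188 and -184 overlap in 1 run, in a window of 76.4% G and C with 30 CpG pairs. Aqp3 held 1 GGGCGG match and a TATAAA that begins at -29, and Aqp8 held no match to any of the 6. Over 32851 RefSeq windows of the same length, GGGCGG occurred in 32.7%, TATAAA in 12.4%, AGGTCA in 14.0%, AGAACA in 16.1%, CCAAT in 33.8% and TGACG in 17.8%. The median window had 52.4% G and C, as had that of Aqp8. The Aqp3 window had 64.0%. Of the 9 members 8 have a window in the table, and they held AGGTCA only in Aqp11 and Scnn1b. AGAACA occurred in none.

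Aqp5 (ENSMUSG00000044217; chromosome 15, 99590782 to 99594829, plus strand) encodes the apical water channel of many secretory epithelia, including glands. Its values were 0.660, 0.419 and 1.02 FPKM in f/f and 0.223, 0.664 and 0.955 in d/d libraries. The groups overlapped over most of their range (exact permutation p 0.8, two-sided), and only control replicate 3 reached 1 FPKM. The difference in mean log2(FPKM + 1) was -0.09, and -0.12 without deleted replicate 2. Its sign turned to 0.05 without control replicate 3 and to 0.10 without deleted replicate 1.

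Aqp11 (ENSMUSG00000042797; chromosome 7, 97724006 to 97738289, minus strand) encodes a divergent aquaporin found mainly in the endoplasmic reticulum. Its values were 7.48, 5.75 and 7.35 FPKM in f/f and 9.88, 5.32 and 10.7 in d/d libraries. Deleted replicates 1 and 3 lay above all controls and replicate 2 lay below all of them. The log2 change was 0.25 (SE 0.24, 95% interval -0.31 to 0.81; limma adjusted p 0.946). Without deleted replicate 2 it was 0.53, with a limma unadjusted p of 0.00603 and an adjusted p of 0.208. With array quality weights it was 0.42 (unadjusted p 0.0136, limma adjusted p 0.0927), and without deleted replicate 3 it was 0.08.

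**Figure D2:**
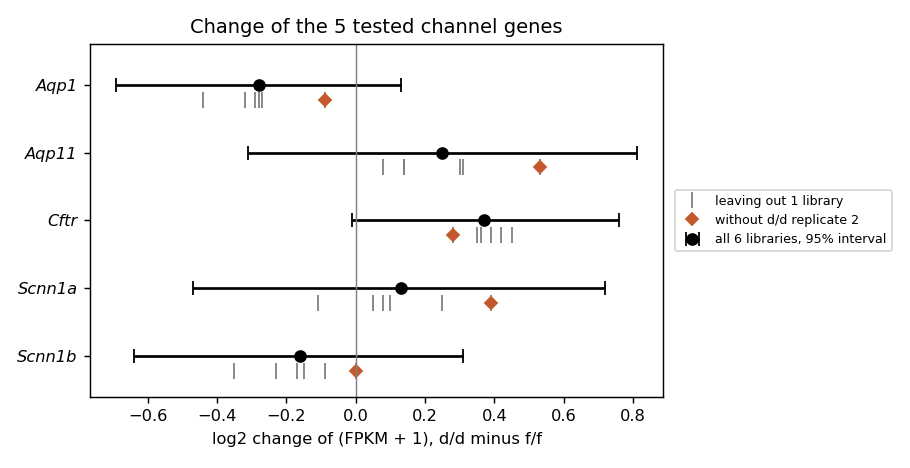
Log2 change of (FPKM + 1), deleted minus control, for the 5 tested genes: black points with 95% intervals for all 6 libraries, grey ticks for the fits that leave out 1 library, and orange diamonds for the fit without d/d replicate 2. All intervals include 0, and leaving out that library moved Aqp11 and Scnn1a furthest from 0 (0.53 and 0.39) and brought Scnn1b to 0.

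The sodium channel subunits differed in level and shared 1 order of the deleted libraries, with replicate 2 lowest and replicate 3 highest. Scnn1a (ENSMUSG00000030340; chromosome 6, 125320659 to 125344943, plus strand) encodes the alpha subunit, which is needed for the channel to conduct. It had 5.59, 3.99 and 4.21 FPKM in f/f and 5.32, 3.20 and 7.42 in d/d libraries. Scnn1b (ENSMUSG00000030873; chromosome 7, 121865038 to 121918514, plus strand), for the beta subunit, had 2.74, 2.45 and 3.19 FPKM in f/f and 2.29, 1.67 and 3.36 in d/d libraries. For both genes the deleted group spanned the whole control range, with replicate 2 below it and replicate 3 above it. Log2 changes were 0.13 for Scnn1a (SE 0.26, 95% interval -0.47 to 0.72; limma adjusted p 0.982) and -0.16 for Scnn1b (SE 0.21, 95% interval -0.64 to 0.31; adjusted p 0.953). Without deleted replicate 2 they were 0.39 and 0, and without deleted replicate 3 they were -0.11 and -0.35. Cog7 overlaps the Scnn1b locus on the other strand without shared exonic bases.

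Scnn1g (ENSMUSG00000000216; chromosome 7, 121734479 to 121768475, plus strand), for the gamma subunit, was the lowest of the 3 subunits in every library. Control values were 0.145, 0.281 and 0.240 FPKM, and deleted values were 0.206, 0.103 and 0.672. Deleted replicate 3 stood above all controls, while the other deleted libraries lay in or below the control range (exact permutation p 0.9, two-sided). The difference in mean log2(FPKM + 1) was 0.10, with 0.22 without deleted replicate 2 and -0.08 without deleted replicate 3. Scaled by relative depth, the Scnn1g values came within 0.222 of whole multiples, 7, 11 and 10 in f/f and 8, 5 and 27 in d/d libraries. If 1 step is 1 fragment, its lowest place in deleted replicate 2 rests on few fragments.

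As shares of the summed FPKM of the 3 subunits, Scnn1a made up 66.0%, 59.4% and 55.1% in f/f and 68.1%, 64.3% and 64.8% in d/d libraries. Scnn1b made up 32.3%, 36.5% and 41.8% in f/f and 29.3%, 33.6% and 29.4% in d/d libraries, and Scnn1g between 1.71% and 5.87%. The mean Scnn1a share was 5.58 percentage points higher and the mean Scnn1b share 6.09 points lower in deleted libraries, with overlapping groups (exact permutation p 0.3 and 0.2, two-sided). Without control replicate 3 the differences were 3.05 and -3.63 points, and leaving out control replicate 1 gave 8.5 and -8.36. The sum itself varied more, at 8.47, 6.72 and 7.64 FPKM in f/f and 7.81, 4.98 and 11.5 in d/d replicates 1, 2 and 3.

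**Figure D3:**
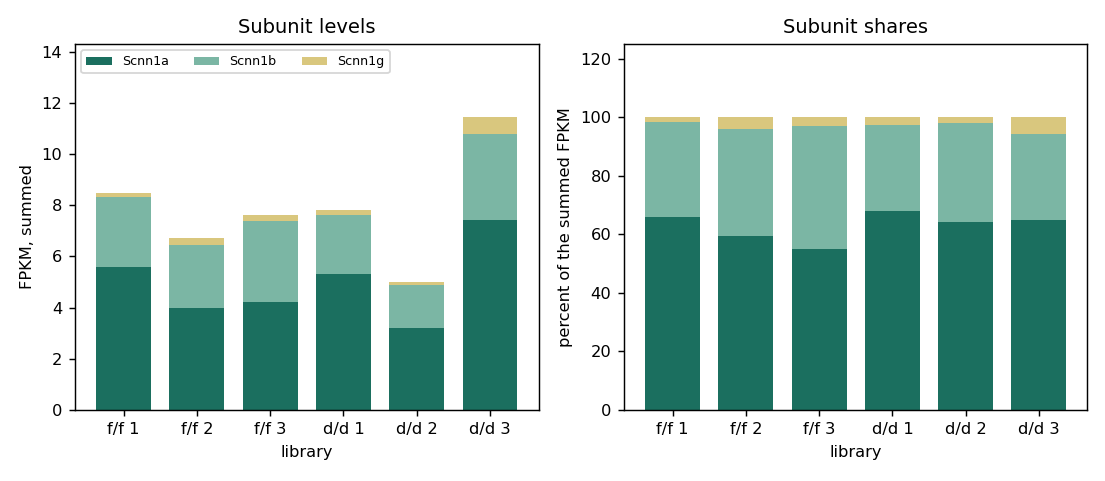
Stacked bars of Scnn1a, Scnn1b and Scnn1g per library, in FPKM (left) and as percent of their sum (right). The sum ranges from 4.98 FPKM in d/d replicate 2 to 11.5 in d/d replicate 3, while the Scnn1a share stays between 55.1% and 68.1%.

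Scnn1g and Scnn1b are neighbours on chromosome 7, on the same strand, 96563 bases apart with 1 annotated gene between them. Since both were highest in deleted replicate 3 and lowest in deleted replicate 2, the windows before their RefSeq starts are shown in the same way (capitals mark the same motifs).
Scnn1g, chr7:121734229-121734478, plus strand: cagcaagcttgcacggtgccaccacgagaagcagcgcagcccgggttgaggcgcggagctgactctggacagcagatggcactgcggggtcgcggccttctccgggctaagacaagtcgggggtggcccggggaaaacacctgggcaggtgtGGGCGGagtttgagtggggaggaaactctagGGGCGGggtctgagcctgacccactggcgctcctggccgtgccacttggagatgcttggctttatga
Scnn1b, chr7:121864788-121865037, plus strand: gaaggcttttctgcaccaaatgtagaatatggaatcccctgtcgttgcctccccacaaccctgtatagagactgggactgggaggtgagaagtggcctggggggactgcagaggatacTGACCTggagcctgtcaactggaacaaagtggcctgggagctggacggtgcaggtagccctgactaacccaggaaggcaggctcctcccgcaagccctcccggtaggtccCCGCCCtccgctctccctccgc

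Scnn1g held 2 GGGCGG matches, which begin at -98 and -67. Scnn1b held 1 that begins at -22 and 1 AGGTCA match that begins at -132, both in the reverse orientation. The windows had 65.2% and 60.8% G and C.

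The contrast between deleted replicates 2 and 3 ran through most of the members. Aqp1, Aqp11, Scnn1a, Scnn1b and Scnn1g, 5 of 9, were highest in deleted replicate 3 and lowest in deleted replicate 2. Of these Scnn1g was not tested and rests on few fragments. Among tested members all but Cftr had this order, as had 12.3% of all genes tested. Deleted replicate 3 was the highest library for 6 of 9 members, the untested Aqp3 and Scnn1g among them, and for 22.1% of genes tested. Deleted replicate 2 was the lowest for 6 of 9, the untested Aqp8 and Scnn1g among them, and for 25.7% of genes tested. These shares cover tested genes only, so they are not on the same footing as counts over all 9 members. Summed FPKM of the epithelial markers ran from 871.5 in replicate 2 to 1190 in replicate 3, with controls at 917.8 to 989.3. The median epithelial marker was not low in replicate 2. Most of the difference in the sum lay in Cldn3 (123.8 and 317.5 FPKM in replicates 2 and 3) and Krt18 (116.0 and 204.3). Epcam, Krt8, Cldn7, Elf3 and Esrp1 were lower in replicate 3 than in replicate 2. The spread among deleted libraries on the log2 scale was 2.63 times that among controls for Aqp11, 2.33 times for Scnn1a, 2.51 times for Scnn1b and 2.2 times for Cftr, each above the median ratio of 1.73. The part of cell composition or proliferation in these differences was not tested.

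**Figure D4:**
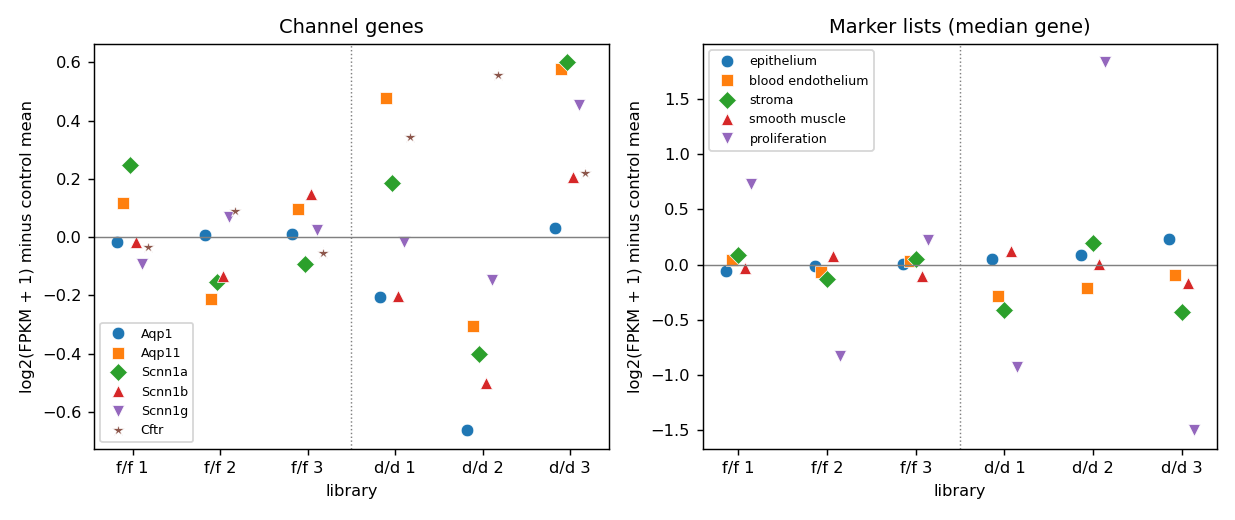
Log2(FPKM + 1) minus the control mean in each library for 6 channel genes (left) and for the median gene of 5 marker lists (right). Scnn1a, Scnn1b, Scnn1g, Aqp11 and Aqp1 are lowest in d/d replicate 2 and highest in d/d replicate 3, Cftr is highest in d/d replicate 2, and the proliferation list runs from 1.83 in d/d replicate 2 to -1.5 in d/d replicate 3.

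For each tested member, the gene with the most similar profile over the 6 libraries was taken from 11180 genes, by the root mean square difference of log2(FPKM + 1) after subtraction of the control mean. Clmn was nearest to Aqp1 (0.0421), Zc3h6 to Aqp11 (0.0471), Wdr53 to Cftr (0.0475), Jam2 to Scnn1a (0.0591) and Boc to Scnn1b (0.0193). The likeness rests on 6 libraries, and no test was made of it. Wdr53 had 7.05, 8.10 and 6.65 FPKM in f/f and 8.89, 11.2 and 8.39 in d/d libraries, the same order of libraries as Cftr.

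Other genes of ion and fluid transport were taken from 4 lists of 41 genes, of which 28 were tested. Of these 10 had a higher and 18 a lower mean log2(FPKM + 1) in deleted libraries, with a median log2 change of -0.06 against 0.03 over all genes tested. None passed an adjusted p of 0.05, and 1 of 28 had an unadjusted p under 0.05. Groups separated with deleted libraries above for 1 of 28 (Car2) and below for 2 of 28 (Sgk1 and Nedd4), against 6.12% and 4.6% of all genes tested, so that the count was close to the general share. None of the 7 other aquaporins was tested: Aqp6 and Aqp12 were listed at 0 in all libraries, and Aqp7, an aquaglyceroporin of fat, reached 1.04 FPKM in control replicate 1 only.

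Among 10 genes that process or control ENaC, 4 had a higher and 6 a lower mean log2(FPKM + 1), and the median log2 change was -0.08. Sgk1, a kinase that keeps ENaC at the cell surface and is induced by corticosteroids, had the smallest p. It had 19.2, 22.7 and 23.0 FPKM in f/f and 12.8, 13.7 and 19.1 in d/d libraries, so that all deleted values lay below the controls, replicate 3 by a small margin. Its log2 change was -0.50 (SE 0.16; limma unadjusted p 0.0175, adjusted p 0.922). With array quality weights it was -0.62 with an adjusted p of 0.047, and over all alternatives the adjusted p ranged from 0.047 to 1. Hsd11b2, whose enzyme inactivates glucocorticoids in mineralocorticoid target cells, had a mean of 15.8 ± 1.56 FPKM in controls and 12.9 ± 1.49 in deleted libraries (SD, n = 3), with overlap. Nedd4 encodes a ubiquitin ligase related to Nedd4l, the ligase that removes ENaC from the surface, and is named because its groups separated. Its values were 417.4, 398.7 and 405.7 FPKM in f/f and 330.8, 376.1 and 357.5 in d/d libraries (log2 change -0.20).

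Of 5 sodium-potassium pump subunits, 1 had a higher and 4 a lower mean on that log2 scale (median log2 change -0.08). None had groups that separated. Of 13 tested genes of chloride and bicarbonate transport, 5 had a higher and 8 a lower mean on the log2 scale (median -0.06). Car2, a carbonic anhydrase that supplies bicarbonate, had 61.3, 68.6 and 69.3 FPKM in f/f and 84.7, 72.4 and 74.8 in d/d libraries, without overlap (log2 change 0.21; limma adjusted p 0.922). Ano1, a calcium-activated chloride channel, had 55.7, 59.8 and 59.7 FPKM in f/f and 50.7, 41.9 and 59.5 in d/d libraries (log2 change -0.21, limma adjusted p 0.924), with a log2 change of -0.09 without deleted replicate 2 and -0.33 without deleted replicate 3.

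**Figure D5:**
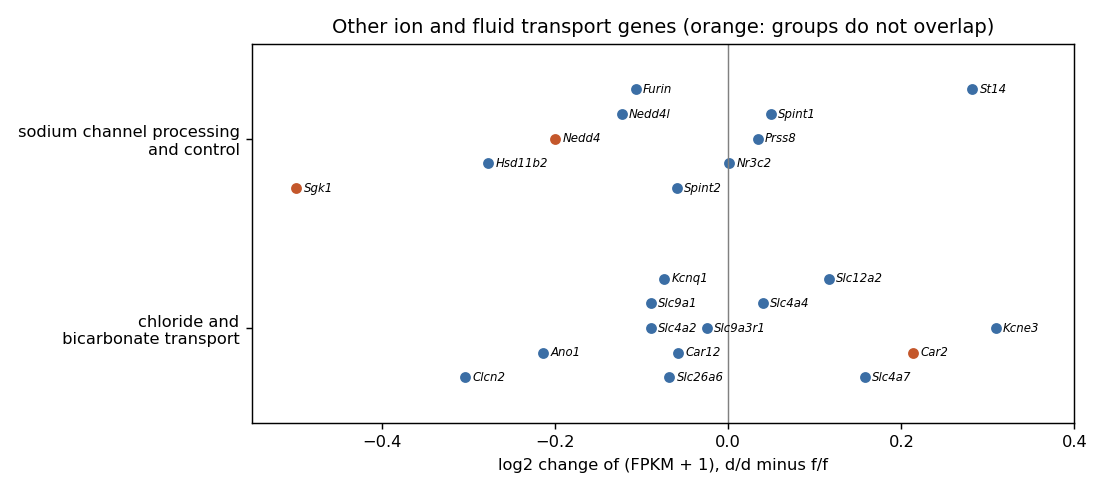
Log2 change of (FPKM + 1), deleted minus control, of the tested genes in the lists of sodium channel control (10 genes) and of chloride and bicarbonate transport (13 genes), 1 point per gene (orange where the groups do not overlap). Changes run from -0.50 for Sgk1 to 0.31 for Kcne3, and Sgk1, Nedd4 and Car2 are the 3 genes whose groups do not overlap.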

How the data were processed

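The authors deposited 1 table per library of FPKM values per gene, normalized for transcript length and mapped fragments. The submitters' processing notes name HISAT2 2.2.1, Cufflinks 2.2.1 and the mm10 build. The unit follows from Cufflinks and the values, since the headers name none. The annotation, gene filter, strandedness and any scaling between libraries are not given in the sources used here. RNA was extracted with TRIzol and libraries made with an Illumina TruSeq RNA kit, per the labels' protocols.

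Values were analysed as log2(FPKM + 1), which understates changes of low genes. Genes with at least 1 FPKM in at least 3 libraries were tested with limma 3.58.1 in R 4.3.3 (mean-variance trend, group as the only term, two-sided, Benjamini-Hochberg over all 12640). The fit was also run on simulated libraries with known changes, larger than those of the tested members and in genes above the levels of Cftr and Scnn1b. That run does not speak to smaller changes or lower genes. Single values were also compared by an exact permutation test over all 20 relabellings.

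The members, lists and tests were chosen with earlier results of these data known. Named genes were the members, Nat10, the 2 tested genes with the smallest p in each transport list, and the gene nearest in profile to each tested member. Some genes that this rule names are not reported here. Genes named for separated groups (Nedd4) or as examples (Aqp6, Aqp7, Aqp12, Kcne3 and all marker genes named singly) were chosen after their values were seen.

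Relative depth was the most frequent ratio of low values between a library and control replicate 1, for products of value and transcript length under 100, counted in windows 0.01 wide in natural log units. Values of Aqp3, Aqp8 and Scnn1g were accepted as whole multiples within 0.1 plus 0.015 per fragment. Coordinates, lengths and overlaps are from GENCODE M21 (GRCm38, the same assembly as mm10), which holds 20558 of the 20637 identifiers. Python 3.11.15 with pandas 2.3.3 joined the tables.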

Additional observations from a re-analysis of the deposited data

How the results depend on the processing

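The 5 tested members had an adjusted p above 0.05 under each of the 13 alternatives, and Aqp3, Aqp5, Aqp8 and Scnn1g, which are tested only with no filter on low values, had one of at least 0.772 there. Changes of direction among members came only from leaving out 1 library. Leaving out each library in turn gave log2 changes of -0.24 to 0.10 for Aqp5, -0.11 to 0.39 for Scnn1a, -0.35 to 0 for Scnn1b and -0.08 to 0.22 for Scnn1g. Cftr, Aqp3, Aqp8, Aqp1 and Aqp11 kept their direction when each library was left out and with a pseudocount of 0.1. The filters and the replicate block leave a gene's difference of means as it is, so they bear only on its p.

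The count of genes called over the whole table was 0 with all 6 libraries (limma; 630 at an unadjusted p under 0.05). Leaving out each library gave 0 to 12, the 12 without deleted replicate 2, and array quality weights gave 316 (3730 at an unadjusted p under 0.05, Aqp11 and Cftr among them). With those weights Nat10 passed the threshold (log2 change -1.09, adjusted p 0.0386). The cause was not tested.

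The median log2 change of the sodium channel control list was -0.24 to 0.05 when each library was left out, above 0 without deleted replicate 2. That of the chloride and bicarbonate list was -0.05 to 0.03, and 0.01 with no filter on low values. The Scnn1g share difference was -0.658 to 1.24 percentage points.

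Same-numbered libraries did not deviate together (correlations of -0.34, -0.03 and 0.10 for numbers 1, 2 and 3), and no source used here says that a number marks a shared litter, day or batch, so the libraries were not treated as pairs. With the replicate block, 0 genes were called (726 at an unadjusted p under 0.05) and the adjusted p of Cftr was 0.849, with its log2 change of 0.37 fixed by the balanced design. The alternatives were pseudocount, filters, median centring, quantile normalization, array weights, the block and the left-out libraries.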
